A study of Mus musculus with 36 samples.

Results

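The genes described here are the 9 that build the creatine kinase energy shuttle of the heart: the creatine kinases Ckmt2, Ckm, Ckb and Ckmt1, the creatine transporter Slc6a8, the creatine synthesis enzymes Gamt and Gatm, the adenylate kinase Ak1 and the adenine nucleotide translocase Slc25a4. They were chosen by symbol as members of this system and make up 9 of the 55291 genes in the count table. All 9 passed the low-count filter, which left 19231 genes for testing.

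The study asked how far extra muscleblind-like (MBNL) protein reverses the effects of expanded CUG repeat RNA in CUG960 mice, a heart model of myotonic dystrophy type 1. RNA-seq was made from the left ventricle and the atria at 21 weeks in 6 cohorts, with 3 libraries per cohort and chamber and 36 libraries in all. Every mouse carried both transgenes, TREDT960I (homozygous) and MHCrtTA (hemizygous), so repeat RNA was made in cardiomyocytes only while doxycycline (dox) was fed. The +dox mice received dox from postnatal day 1 to the end, the +/–dox mice were taken off it at 9 weeks, and the –dox mice never received it. The MBNL1, MBNL2 and MBNL1+MBNL2 mice stayed on dox and received, at 9 weeks, an AAV9 vector with tagged human MBNL1, tagged human MBNL2, or both, under the heart-specific human TNNT2 promoter. Their tissue was taken 12 weeks later. The labels give no vector for the +dox libraries, so delivery of a vector and the MBNL it carried cannot be told apart in these libraries. A cohort with a tdTomato vector was not analysed here. The study also measured Ckmt2 by RT-qPCR, with +dox and tdTomato mice as controls, and reports significant rescue by MBNL in ventricle. The labels do not tie libraries to animals by number. The p-values of fold changes rest on the spread between libraries within groups. That spread was estimated in a joint fit over all 12 groups and both chambers.

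Creatine kinase moves the high-energy phosphate of ATP onto creatine and back. Ckmt2 sits in the mitochondrial intermembrane space of striated muscle, where it takes ATP handed out by the translocase Slc25a4 and makes phosphocreatine. The cytosolic enzymes Ckm and Ckb regenerate ATP from phosphocreatine beside myosin and the ion pumps, and the heart imports its creatine through Slc6a8 more than it makes it.

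Ckmt2 (ENSMUSG00000021622.3) lies on the minus strand at chr13:91853387-91876885 in GRCm38 (mm10). Ckm, the muscle cytosolic enzyme (ENSMUSG00000030399.2), lies at chr7:19404776-19422841 on the plus strand, and Ckb, the brain-type cytosolic enzyme (ENSMUSG00000001270.9), at chr12:111669361-111672338 on the minus strand. Ckmt1, the mitochondrial enzyme of non-muscle tissues, lies at chr2:121357714-121363737. Slc6a8 lies at chrX:73673150-73682502, Gamt at chr10:80258151-80261012, Gatm at chr2:122594467-122611303, Ak1 at chr2:32621758-32635058 and Slc25a4 at chr8:46206797-46211284. The gene spans of Ckmt2, Ckm and Ckmt1 overlap a gene on the opposite strand (1700119I11Rik, A930016O22Rik and Strc). The highest level of any of those 3 neighbours was 1.23 TPM (A930016O22Rik). The expected counts of Ckm were not whole in any of the 36 libraries, and those of Ckb were whole in 3, so part of their reads was shared with other transcripts by the counting model. The other members had whole counts throughout (within 0.005).

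The promoters of the 3 abundant creatine kinases are shown because these genes behaved differently in the same libraries. Each window runs from 250 bases before to 50 after the RefSeq start (GRCm38.p6), read 5′ to 3′ on the gene's strand, and 8 of the 9 members had such a window. Capitals mark matches, on either strand, to any of 6 motifs. The E-box was searched as CANNTG, a site of basic helix-loop-helix factors. The half-site of the estrogen-related receptors (ERR) was searched as AAGGTCA. The GATA factor motif was searched as AGATAA and the core promoter TATA motif as TATAAA, while MEF2 and CArG, both known from muscle promoters, are given by name. In the Ckb window the TATA and MEF2 matches overlap.
Ckmt2, chr13:91876836-91877135, minus strand: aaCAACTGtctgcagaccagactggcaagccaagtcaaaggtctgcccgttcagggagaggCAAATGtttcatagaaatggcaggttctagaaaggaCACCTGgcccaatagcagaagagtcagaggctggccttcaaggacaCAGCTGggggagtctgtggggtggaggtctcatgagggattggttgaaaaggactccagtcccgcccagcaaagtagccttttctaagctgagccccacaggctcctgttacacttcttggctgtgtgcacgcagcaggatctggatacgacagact
Ckm, chr7:19410844-19411143, plus strand: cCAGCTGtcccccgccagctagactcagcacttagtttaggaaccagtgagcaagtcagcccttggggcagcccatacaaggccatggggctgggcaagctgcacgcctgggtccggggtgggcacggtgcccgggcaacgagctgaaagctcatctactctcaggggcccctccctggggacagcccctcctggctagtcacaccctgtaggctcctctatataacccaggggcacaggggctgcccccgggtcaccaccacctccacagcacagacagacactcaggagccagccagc
Ckb, chr12:111672289-111672588, minus strand: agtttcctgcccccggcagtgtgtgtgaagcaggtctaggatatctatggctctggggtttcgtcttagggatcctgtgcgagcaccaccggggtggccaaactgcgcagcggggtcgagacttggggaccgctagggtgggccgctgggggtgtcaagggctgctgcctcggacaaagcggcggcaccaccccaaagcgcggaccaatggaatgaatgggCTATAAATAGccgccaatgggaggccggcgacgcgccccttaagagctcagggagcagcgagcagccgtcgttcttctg
The Ckmt2 window held 4 E-box matches, the Ckm window 1, and the Ckb window no match to that motif but 1 to TATA and 1 to MEF2. Among 32851 mouse promoter windows of this length, 72.3% held an E-box match, 13.6% a TATA match, 1.86% MEF2, 4.72% the ERR half-site, 11.2% the GATA motif and 1.63% CArG. These matches describe letters in the window and no binding was measured.

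Libraries held between 55031987 and 97091184 counts. Summed ventricle marker levels were 19972 to 28116 TPM in ventricle and 288 to 1104 TPM in atria, and summed atrial markers 40261 to 61759 TPM in atria and 92.2 to 1007 TPM in ventricle. Mitochondrially encoded genes took 26.6% to 31.7% of TPM in ventricle and 19.2% to 22.6% in atria. Ventricle MBNL1 replicate 1 had fewer genes above 0 (16885) than the other ventricle libraries (20578 to 24041 genes). The vector labels were checked by the mouse genes. In ventricle Mbnl2 was 127 to 174 TPM with MBNL2 and 114 to 153 TPM with MBNL1+MBNL2, against 93.4 to 108 TPM in +dox and 84.0 to 97.1 TPM with MBNL1. Mbnl1 was 56.4 to 68.1 TPM with MBNL1 and 54.8 to 69.0 TPM with MBNL1+MBNL2, against 44.9 to 54.7 TPM in +dox and 44.2 to 48.4 TPM with MBNL2. The part of human vector reads in these levels was not tested. No Ckmt2 result against +dox turned on a single library.

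In TPM, which scales counts to transcript length and library total, Slc25a4 was the most abundant member in both chambers. Its median over 18 libraries was 2441 TPM in ventricle and 2153 TPM in atria. In ventricle it was followed by Ckmt2 (1234 TPM), Ckm (1030.0 TPM), Ak1 (333 TPM), Slc6a8 (79.5 TPM) and Ckb (39.8 TPM). Gamt (6.17 TPM), Gatm (2.87 TPM) and Ckmt1 (0.56 TPM) were low. Ckmt2 and Ckmt1 varied most across the ventricle libraries, by 3.71-fold and 5.35-fold from lowest to highest, whereas Slc25a4 varied by 1.26-fold. The levels of Ckmt1 rest on 12 to 110 counts per ventricle library.

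Ckmt2 transcript was lowest in +dox hearts and higher in every other cohort. In ventricle the 3 +dox libraries held 526, 475 and 557 TPM (mean 519 ± 41.8, SD, n = 3). The –dox libraries held 1651, 1599 and 1639.9 TPM (1630.0 ± 27.5), and the +/–dox libraries 1656, 1651 and 1760.1 TPM (1689 ± 61.6). Every library without ongoing dox was far above every +dox library. With MBNL1 the values were 1161, 1248 and 1220.0 TPM (1209.6 ± 44.2), and with MBNL2 1147, 1075.5 and 1074 TPM (1099 ± 42.0). With MBNL1+MBNL2 they were 1503, 1365 and 1169 TPM (1346 ± 168). All 9 ventricle libraries with an MBNL vector thus lay above the +dox libraries and below the –dox libraries.

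**Figure D1:**
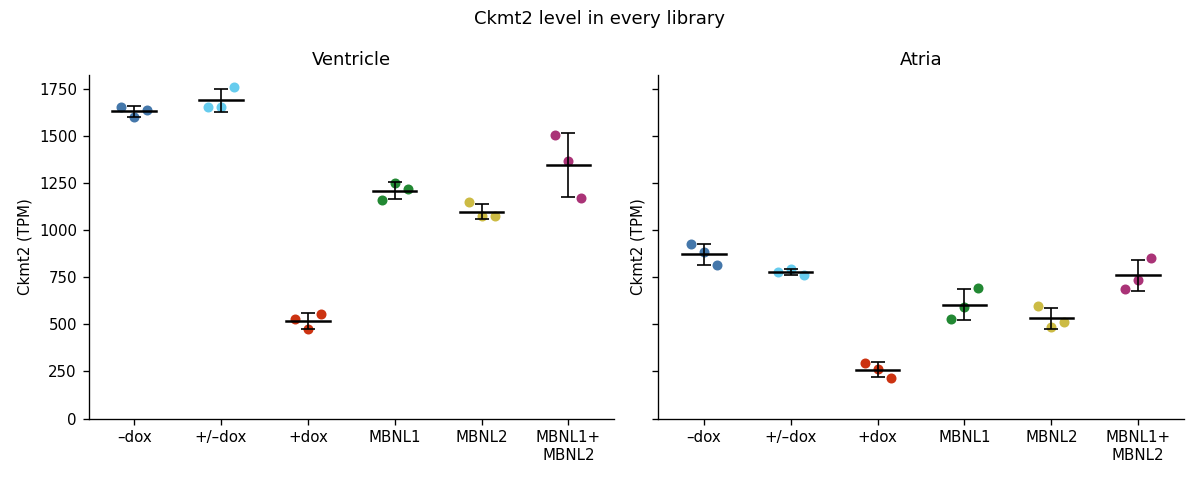
Ckmt2 level in TPM (y axis) in each library of the 6 cohorts (x axis) in ventricle and atria. Points are libraries, bars are the mean ± SD of 3; the +dox libraries sit between 475 and 557 TPM in ventricle and 217 and 296 TPM in atria, below all others of their chamber.

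Fold changes were estimated with edgeR's quasi-likelihood test on expected counts and are on the log2 scale. A gene was counted as changed at a Benjamini-Hochberg adjusted p under 0.05 over all tested genes and a fold change of at least 1.5. Against +dox, ventricular Ckmt2 was higher by 1.70 in –dox (SE 0.116, adjusted p = 6.1e-12) and by 1.72 in +/–dox (adjusted p = 4.7e-12). It ranked 6th and 4th by p among the 19231 genes. It rose by 1.19 with MBNL1 (95% interval 0.96 to 1.43, adjusted p = 1.1e-07), by 0.95 with MBNL2 (0.71 to 1.18, adjusted p = 2.1e-05) and by 1.33 with MBNL1+MBNL2 (1.09 to 1.56, adjusted p = 6.0e-09). These 5 comparisons share the +dox libraries. Of the 9 members, 2 passed in –dox and 2 in +/–dox (Ckmt2 higher, Ckmt1 lower), where 7.6% and 6.6% of all genes passed. Only Ckmt2 passed in each MBNL cohort, where 2.66% (MBNL1), 1.52% (MBNL2) and 2.65% (MBNL1+MBNL2) of all genes passed.

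In atria the +dox libraries held 296, 263.5 and 217 TPM of Ckmt2 (259 ± 39.5, SD, n = 3). The –dox libraries held 924, 881 and 814 TPM (873 ± 55.8) and the +/–dox libraries 776, 795 and 763 TPM (778 ± 15.8). Again no library of either cohort came near the +dox range. The MBNL1 libraries held 528, 594 and 692 TPM (605 ± 82.1), the MBNL2 libraries 595, 485 and 513 TPM (531 ± 57.2), and the MBNL1+MBNL2 libraries 689, 737 and 852 TPM (759 ± 84.0). The MBNL1+MBNL2 libraries overlapped those of both cohorts without ongoing dox.

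Against +dox, atrial Ckmt2 was higher by 1.78 in –dox (SE 0.116, adjusted p = 1.7e-12) and by 1.64 in +/–dox (adjusted p = 1.2e-11). It rose by 1.20 with MBNL1 (95% interval 0.97 to 1.43, adjusted p = 2.0e-07), by 1.06 with MBNL2 (0.83 to 1.29, adjusted p = 3.4e-06) and by 1.50 with MBNL1+MBNL2 (1.27 to 1.74, adjusted p = 8.3e-10). It was the gene with the smallest p of all 19231 in each of these 3 MBNL comparisons. With MBNL2 it was also the 1 gene of the whole table that passed. That call was lost when only the 2 groups were fitted (log2 fold change 1.07, adjusted p = 0.53). Ckmt2 was the 1 member that passed in each atrial comparison with +dox, where 5.23% (–dox), 3.99% (+/–dox), 0.13% (MBNL1), 0.0052% (MBNL2) and 0.26% (MBNL1+MBNL2) of all genes passed.

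**Figure D2:**
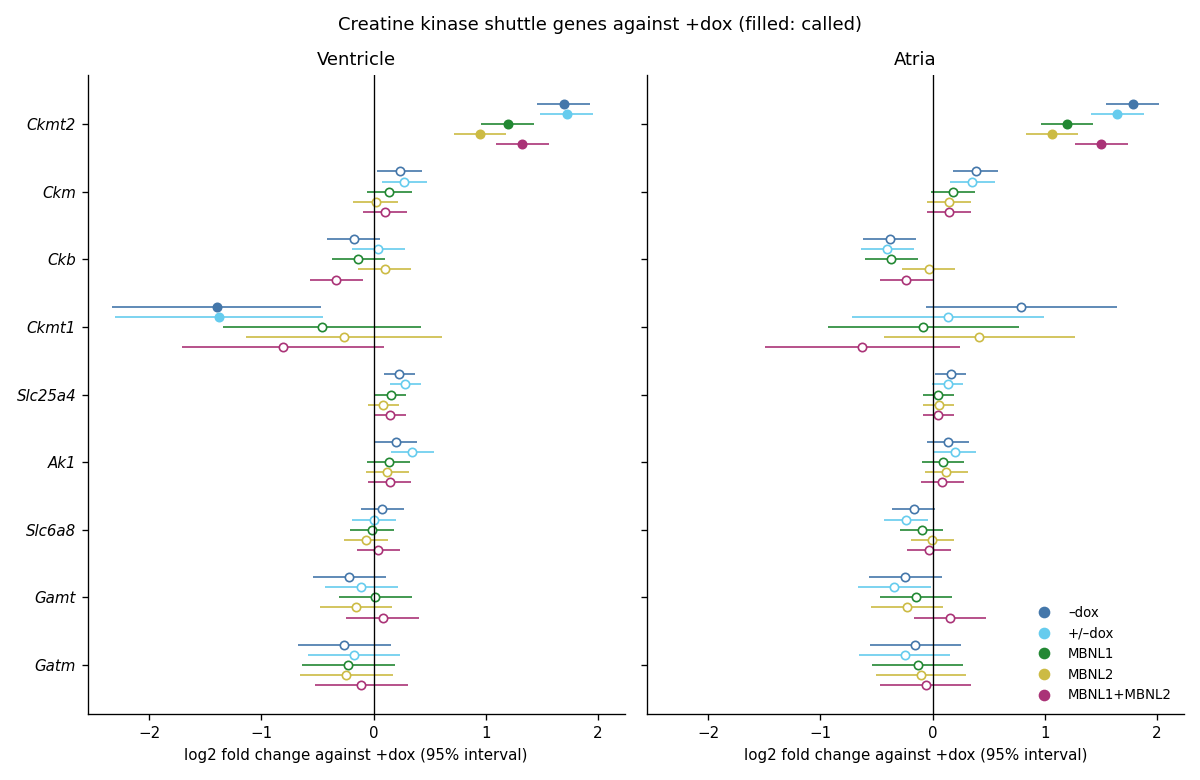
Log2 fold change against +dox (x axis) of the 9 members (y axis) in ventricle and atria, from edgeR. Bars are 95% intervals and filled points passed the test; Ckmt2 is filled in all 10 comparisons, between 0.95 and 1.78, and the other members are open except Ckmt1 in ventricle –dox and +/–dox.

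The library names start with 53 or 56, and what these numbers mark is not given. Within each set, Ckmt2 was higher than in +dox in all cohorts. In ventricle –dox the difference in log2 CPM was 1.75 among names starting with 53 and 1.59 among those starting with 56. For atrial MBNL1 the corresponding values were 0.99 and 1.66. All MBNL1+MBNL2 libraries start with 56, with 1 +dox library per chamber beside them, and there the differences were 1.29 in ventricle and 1.84 in atria. The study lists only male mice for MBNL1+MBNL2 and both sexes for every other cohort. The part of sex in the MBNL1+MBNL2 differences was not tested.

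The comparison with +/–dox sets the vectors beside withdrawal of the repeat RNA from the same age on. Ventricular Ckmt2 with MBNL2 was lower by 0.77 than in +/–dox (95% interval -1.0 to -0.54, adjusted p = 6.8e-05). With MBNL1 the difference was -0.52 (adjusted p = 0.0100, under the fold limit), and with MBNL1+MBNL2 it was -0.39 (adjusted p = 0.065). In atria the differences were -0.44 with MBNL1 (adjusted p = 0.018), -0.58 with MBNL2 (adjusted p = 8.1e-04) and -0.14 with MBNL1+MBNL2 (95% interval -0.37 to 0.09, adjusted p = 0.54). None of the atrial differences reached the fold limit. Ckmt2 with MBNL2 in ventricle was the 1 member that passed, where 1.57% of all genes did. In the other 5 comparisons edgeR called 0 members, with 0.868% (ventricle MBNL1), 0.53% (ventricle MBNL1+MBNL2), 1.21% (atria MBNL1), 3.24% (atria MBNL2) and 1.71% (atria MBNL1+MBNL2) of all genes called. At an unadjusted p under 0.05 these 5 held 2, 3, 1, 4 and 3 members. Of all 19231 genes, 3254, 2821, 3267, 4631 and 3845 had such a p. DESeq2 called 0 in each, and limma on log2(TPM + 0.1) called 1 in the last (Gamt, 0.59, adjusted p = 0.013).

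Between –dox and +/–dox, Ckmt2 differed by -0.02 in ventricle (95% interval -0.25 to 0.21) and by 0.14 in atria (-0.09 to 0.37). No member was called in either chamber by edgeR, DESeq2 or limma, and 0 had an unadjusted p under 0.05. Among all 19231 genes, 1586 in ventricle and 907 in atria had such a p. Of all genes, 0.0312% and 0.0104% were called.

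Ordered by mean TPM, the 12 groups ran from atria +dox through ventricle +dox, atria MBNL2, MBNL1, MBNL1+MBNL2, +/–dox and –dox to ventricle MBNL2, MBNL1, MBNL1+MBNL2, –dox and +/–dox. Libraries of neighbouring groups overlapped for ventricle +dox (475 to 557 TPM) with atria MBNL2 (485 to 595 TPM), atria MBNL2 with MBNL1, atria MBNL1 with MBNL1+MBNL2, atria MBNL1+MBNL2 with +/–dox, and ventricle MBNL1 with MBNL1+MBNL2. The 2 +dox groups thus lay at the bottom of the order, and within each chamber MBNL2 had the lowest mean of the vector cohorts by the sample labels. The study's supplement instead gives MBNL1+MBNL2 the smallest Ckmt2 fold change of the vector cohorts in both chambers. In both chambers its fold changes under MBNL1, MBNL2 and MBNL1+MBNL2 lie close to those found here for MBNL1+MBNL2, MBNL1 and MBNL2, in that order. Similar values thus stand under different cohort headings in these sources, and the reason was not tested.

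Ckm, the cytosolic partner of Ckmt2, moved far less. In ventricle it stood at 792, 826 and 855 TPM in +dox, at 1021, 884 and 1190.3 TPM in –dox, and at 1064, 1039 and 1250.1 TPM in +/–dox. The +dox libraries were the lowest of these 3 cohorts, without overlap. With MBNL1 it stood at 889.7, 1012 and 1176 TPM, with MBNL2 at 925, 1066 and 1132.5 TPM, and with MBNL1+MBNL2 at 1125, 1152 and 800.03 TPM, the last of which overlapped +dox. With edgeR the log2 fold changes with the vectors were 0.14 (adjusted p = 0.39), 0.02 (adjusted p = 0.95) and 0.10 (adjusted p = 0.59). They were 0.23 in –dox (adjusted p = 0.091) and 0.27 in +/–dox (adjusted p = 0.042), both under the fold limit. The size with the vectors depends on the scale. In TPM the ventricle means were 1025.9 (MBNL1), 1041.1 (MBNL2) and 1025.6 (MBNL1+MBNL2) against 824.2 in +dox. All MBNL1 and MBNL2 libraries lay above +dox on that scale. In atria Ckm stood at 582, 560 and 496 TPM in +dox and at 772, 682 and 699 TPM in –dox. Its log2 fold changes were 0.38 in –dox (adjusted p = 0.0061) and 0.35 in +/–dox (adjusted p = 0.014), again under the limit of 1.5-fold.

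Ckb, the isoform typical of brain and smooth muscle, differed in the opposite direction in atria. It stood at 174, 162 and 146 TPM in atrial +dox libraries against 128, 119 and 114 TPM in –dox and 108, 120.2 and 122 TPM in +/–dox, with no overlap. The log2 fold changes were -0.38 (adjusted p = 0.021) and -0.40 (adjusted p = 0.018), under the fold limit. In ventricle, where Ckb was 40.0 to 47.1 TPM in +dox and 33.5 to 39.0 TPM in –dox, the difference was -0.18 (adjusted p = 0.31). The chamber difference in these responses was not called for any member (0.764% of all genes for –dox and 0.489% for +/–dox). At an unadjusted p under 0.05 it held 1 member (Ckmt1) for –dox and 2 (Ckb, Ckmt1) for +/–dox. Among all 19231 genes, 2120 and 2438 had such a p. DESeq2 called 1 (Ckmt1, -2.17, adjusted p = 0.027) and 0, and limma 0 and 0.

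Taken over the 4 creatine kinases, Ckmt2 formed a smaller share of the transcript in +dox. In ventricle its share of summed creatine kinase TPM was 37.4% ± 1.92 (SD, n = 3) in +dox, 60.5% ± 3.21 in –dox and 59.3% ± 1.55 in +/–dox. It was 53.3% ± 2.92 with MBNL1, 50.2% ± 3.45 with MBNL2 and 56.1% ± 2.52 with MBNL1+MBNL2. In atria the share was 26.7% ± 1.44 in +dox, 50.9% ± 1.25 in –dox, 48.9% ± 2.03 in +/–dox, 43.5% ± 2.08 with MBNL1, 41.4% ± 4.14 with MBNL2 and 48.5% ± 2.61 with MBNL1+MBNL2. In all 10 comparisons the libraries did not overlap those of +dox. Each gave p = 0.1 in a two-sided exact permutation test, the smallest p that 3 against 3 allows, and 0.12 after adjustment over 12 comparisons.

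The Ckmt2 to Ckm ratio put the same difference on another scale. It averaged 0.63 in ventricle +dox and 1.60 in –dox, and 0.47 in atria +dox and 1.22 in –dox. Mitochondrial transcript thus exceeded cytosolic muscle transcript in both chambers without dox, and the order was turned around in +dox. With the vectors the ratio was 1.19, 1.07 and 1.33 in ventricle (MBNL1, MBNL2, MBNL1+MBNL2) and 0.92, 0.90 and 1.15 in atria. Ckb made up 16.6% ± 0.31 of the summed TPM in atria +dox and 7.03% ± 0.04 in –dox, and 3.11% ± 0.37 and 1.37% ± 0.06 in ventricle. The summed creatine kinase level was 1387 TPM in ventricle +dox against 2699 TPM in –dox, and 967 against 1714 TPM in atria.

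**Figure D3:**
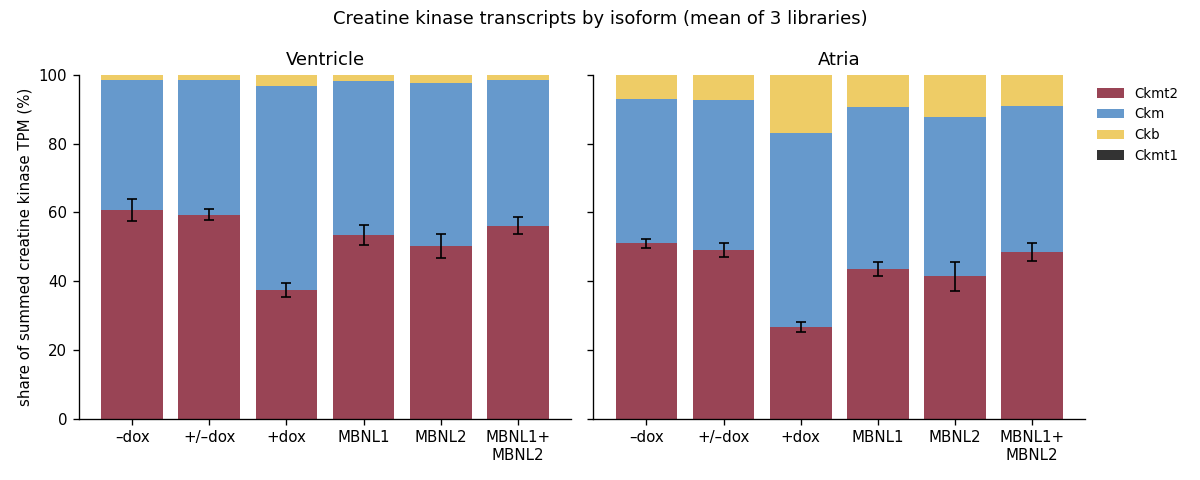
Share of summed creatine kinase TPM in percent (y axis) by isoform, as the mean of 3 libraries in each cohort (x axis); error bars are the SD of the Ckmt2 share alone. The Ckmt2 share is lowest in +dox, at 37.4% in ventricle and 26.7% in atria, while Ckmt1, below 0.2% in every group, is too small to see.

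Ckmt1 was the other member that passed, in ventricle only and at very low level. It stood at 1.07, 0.82 and 0.68 TPM in ventricle +dox, at 0.48, 0.24 and 0.20 TPM in –dox and at 0.42, 0.28 and 0.28 TPM in +/–dox. The +dox libraries lay above both other groups. Ckmt1 fell by 1.40 in –dox (95% interval -2.33 to -0.47, adjusted p = 0.027) and by 1.38 in +/–dox (-2.30 to -0.45, adjusted p = 0.028). Both calls were lost without ventricle +dox replicate 1 (-1.21, adjusted p = 0.11 and -1.18, adjusted p = 0.11) and without +dox replicate 2 (adjusted p = 0.051 and 0.052). The –dox call was also lost without –dox replicate 2 or 3 (adjusted p = 0.091 and 0.13), and the +/–dox call without +/–dox replicate 2 or 3 (adjusted p = 0.093 and 0.10). In atria the +dox and –dox libraries overlapped (0.96 to 1.92 and 1.50 to 3.24 TPM) and the log2 fold change was 0.79 (95% interval -0.06 to 1.64, adjusted p = 0.21). The test of this difference between chambers gave -2.19 (95% interval -3.45 to -0.93, adjusted p = 0.079).

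The translocase Slc25a4 stood at 2053, 2074 and 2116 TPM in ventricle +dox and at 2390.5, 2240.4 and 2501 TPM in –dox, without overlap. Its log2 fold changes were 0.23 in –dox (adjusted p = 0.014) and 0.28 in +/–dox (adjusted p = 0.0029), well under 1.5-fold. In atria they were 0.16 (adjusted p = 0.11) and 0.13 (adjusted p = 0.21). Slc25a4 made up 89.6% to 90.9% (group means) of the summed TPM of the translocases Slc25a4, Slc25a5 and Slc25a31 in ventricle and 85.6% to 87.1% in atria.

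Ak1, the cytosolic adenylate kinase that interconverts ATP, ADP and AMP, stood at 254 to 310 TPM in ventricle +dox and at 361 to 371 TPM in +/–dox (log2 fold change 0.34, adjusted p = 0.0079, under the fold limit). In ventricle –dox it stood at 308 to 334 TPM, which overlapped +dox (log2 fold change 0.20, adjusted p = 0.14). In atria the log2 fold changes of Ak1 were 0.14 in –dox (adjusted p = 0.36) and 0.20 in +/–dox (adjusted p = 0.18). Slc6a8 ranged from 64.5 to 96.8 TPM in ventricle and from 45.6 to 64.7 TPM in atria over all cohorts. Gamt, the second enzyme of creatine synthesis, ranged from 4.28 to 7.53 and from 6.74 to 12.6 TPM. Gatm, the first, ranged from 1.78 to 4.56 and from 5.59 to 9.15 TPM. None of Slc6a8, Gamt and Gatm reached an adjusted p under 0.05 against +dox in any cohort or chamber. With the adjusted p alone, 3 of the 9 members passed in ventricle –dox and 5 in +/–dox, where 20.9% and 21.8% of all genes passed. In atria 3 members passed in each (Ckmt2, Ckm and Ckb), where 15.9% and 12.6% of all genes passed.

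In bulk tissue, fewer cells of a type and less RNA per cell cannot be told apart. The 5 cardiomyocyte markers summed to 22916 to 24376 TPM in ventricle +dox and 23863 to 25740 TPM in –dox, which overlapped, and to 27641 to 28926 TPM in +/–dox. In atria they summed to 25863 to 26833 TPM in +dox and 27690 to 28518 TPM in –dox. The 5 endothelial markers were also lower in +dox, at 157 to 174 TPM against 192 to 244 TPM in ventricle –dox and at 222 to 253 TPM against 283 to 340 TPM in atria –dox. No marker of either list was at 0 throughout a group. Of the other marker lists, 5 also differed between +dox and –dox without overlap in at least 1 chamber. The 3 red blood cell markers summed to 366 to 1147 TPM in ventricle +dox, 1774 to 3908 TPM in –dox and 2254 to 2782 TPM in +/–dox, and overlapped between atria +dox and –dox. The 5 atrial markers summed to 40261 to 43329 TPM in atria +dox and 54361 to 57755 TPM in –dox, and the 6 fibroblast markers to 1089 to 1374 and 1430 to 1626 TPM there, with no such gap in ventricle. The 7 skeletal muscle markers summed to 1019 to 1123 TPM in ventricle +dox and 1408 to 1767 TPM in –dox, and to 504 to 600.1 and 706 to 789 TPM in atria. That list holds Ckm itself and Acta1, the skeletal alpha-actin that heart also expresses, whereas the skeletal myosins Myh1, Myh2 and Myh4 were at most 0.07 TPM in these 4 groups. The Schwann cell and neuron markers summed to at most 3.03 TPM in ventricle +dox and at least 3.25 TPM in –dox (7.17 and 9.73 TPM in atria). The part of these lists in the Ckmt2 difference was not tested.

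The chambers differed in most members. In –dox, Ckmt2 was 1.44 higher in ventricle than in atria on the log2 scale (SE 0.115, adjusted p = 5.8e-12), and in +dox 1.53 higher (adjusted p = 1.7e-12). In TPM the gap was smaller, with ventricle and atria means of 1630.0 and 873.2 TPM in –dox and 519.2 and 258.8 in +dox. The difference of the dox response between chambers was -0.09 for –dox (95% interval -0.41 to 0.24, adjusted p = 0.92) and 0.08 for +/–dox (-0.25 to 0.40, adjusted p = 0.91). Slc6a8 was higher in ventricle by 1.23 and 0.98, and Ckm by 1.10 and 1.25 (–dox and +dox). Ckb was lower in ventricle, with log2 fold changes of -1.16 and -1.37, and Gatm with -0.87 and -0.77. The Gatm call in +dox was lost without ventricle +dox replicate 2 (-0.53, under the fold limit). The TPM ranges of the chambers did not overlap for Ckm, Ckb or Gatm in any cohort.

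Ckmt1 had a log2 fold change of -2.46 between ventricle and atria in –dox (adjusted p = 4.5e-05) and of -0.27 in +dox (95% interval -1.13 to 0.59, adjusted p = 0.65). Slc25a4 lay close to the fold limit, passing in –dox (0.63, adjusted p = 3.2e-09, but 0.57 and not called without atria –dox replicate 3) and not in +dox (0.56, but 0.60 and 0.59 and called without atria +dox replicate 1 or ventricle +dox replicate 3). Ak1 was under it in both (0.52 and 0.46), though called in –dox without ventricle –dox replicate 3 (0.60), and Gamt gave -0.09 (95% interval -0.42 to 0.23) and -0.12. In all, 7 of 9 members passed in –dox and 5 in +dox, where 24.9% and 25% of all genes passed. These sizes depend on the scale. The median of all genes between ventricle and atria was -0.03 and 0.00 with edgeR's normalization and -0.50 and -0.47 on log2(TPM + 0.1). On that TPM scale Ckm differed by 0.51 and Slc25a4 by 0.09 in –dox, Slc6a8 by 0.40 in +dox, and none of these 3 passed, while Gamt passed with -0.63 and -0.64. By mean TPM Ak1 was lower in ventricle than in atria, with overlapping libraries. Its ventricle and atria means were 324.6 and 330.3 TPM in –dox and 290.0 and 307.7 TPM in +dox.

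**Figure D4:**
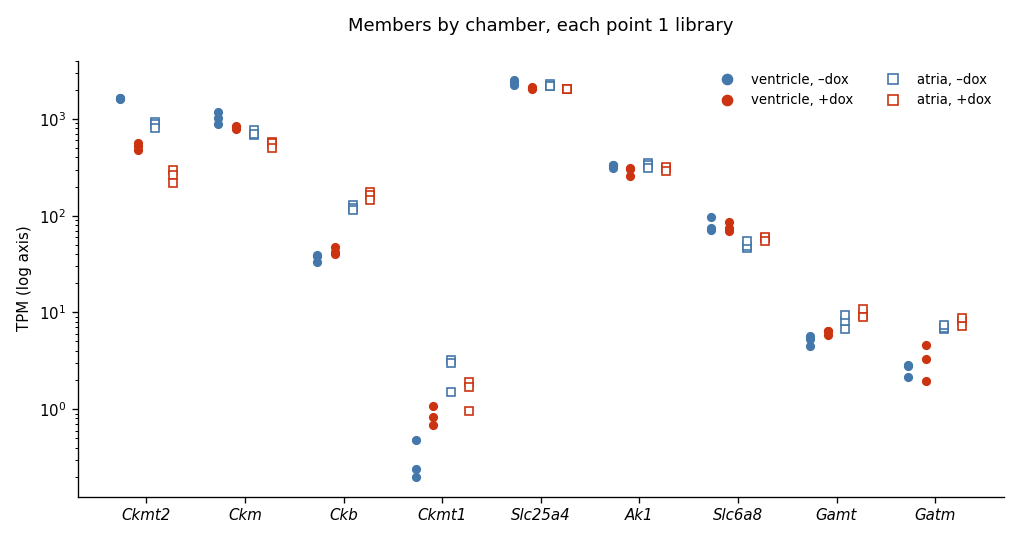
Level in TPM on a log axis (y axis) of the 9 members (x axis) in the 3 libraries each of ventricle and atria, –dox and +dox. Ckm and Ckmt2 are higher in ventricle and Ckb and Gatm in atria under the same dox condition.

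Around the shuttle, 4 lists of related genes were counted against the same backgrounds as the members. Of all tested genes, 7.6% passed in ventricle –dox, 6.6% in ventricle +/–dox, 5.23% in atria –dox and 3.99% in atria +/–dox. Of 20 tested phosphotransfer partners, 1 passed against +dox in both –dox and +/–dox and in both chambers, a share near those backgrounds, and the list's median log2 fold change in ventricle –dox was 0.04 (all genes 0.01). It was Ak4, a mitochondrial matrix adenylate kinase. Ak4 stood at 12.4, 12.3 and 13.5 TPM in ventricle +dox and at 22.5, 18.9 and 16.3 TPM in –dox, without overlap. It rose by 0.64 in ventricle –dox (adjusted p = 0.0012), 0.64 in +/–dox, 0.61 with MBNL1 and 0.66 with MBNL1+MBNL2, and gave 0.58 with MBNL2 (adjusted p = 0.011, under the fold limit). The call went under the fold limit without –dox replicate 1 in –dox (0.49), without MBNL1 replicate 1 with MBNL1 (0.57), and without MBNL1+MBNL2 replicate 2 with both vectors (0.58). With limma the –dox value was also under it, on log2(TPM + 1) (0.55) and on log2(TPM + 0.1) (0.58). In atria Ak4 rose by 0.80 in –dox and by 0.65 in +/–dox (0.56 and not called without +dox replicate 3, and 0.52 and not called with limma on log2(TPM + 1)), and gave 0.27, 0.14 and 0.42 with MBNL1, MBNL2 and MBNL1+MBNL2 (adjusted p = 0.66, 1 and 0.22). In ventricle –dox the translocase Slc25a5 gave 0.14 (adjusted p = 0.29) and the outer membrane channel Vdac1 0.04 (adjusted p = 0.70).

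Of 12 tested genes of the creatine supply chain outside the members, 1 passed in –dox and +/–dox of both chambers (all genes 7.6% and 6.6% in ventricle, 5.23% and 3.99% in atria), with a list median of 0.06 in ventricle –dox. It was Shmt1, cytosolic serine hydroxymethyltransferase, which makes glycine from serine and feeds methyl groups into the folate cycle. Shmt1 stood at 16.6, 16.8 and 18.7 TPM in ventricle +dox and at 3.58, 2.7 and 3.31 TPM in –dox. The groups were far apart. It fell by 2.40 in –dox (adjusted p = 6.3e-10), 1.85 in +/–dox, 1.26 with MBNL1, 1.21 with MBNL2 and 1.47 with MBNL1+MBNL2. Relative to +/–dox it was higher by 0.64 with MBNL2 (adjusted p = 0.045). The call was lost in 7 alternatives, among them those without MBNL2 replicate 2 (0.38) or 3 and without +/–dox replicate 2 or 3.

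In atria Shmt1 stood at 9.48, 8.82 and 9.11 TPM in +dox and at 2.00, 2.38 and 2.29 TPM in –dox. It fell by 2.01 in –dox (adjusted p = 2.8e-08) and by 1.60 in +/–dox. With MBNL1+MBNL2 the value was -0.77 (adjusted p = 0.0495, lost in 11 of the alternatives, among them those without any 1 of its 6 libraries), and with MBNL1 and MBNL2 it was -0.59 (adjusted p = 0.24) and -0.27 (adjusted p = 1.0). Relative to +/–dox, atrial Shmt1 was higher by 1.01, 1.33 and 0.83 (adjusted p = 0.0020, 3.6e-05 and 0.0083) with MBNL1, MBNL2 and MBNL1+MBNL2. The last was lost without MBNL1+MBNL2 replicate 3 (adjusted p = 0.059) or +/–dox replicate 3 (adjusted p = 0.065). Whether the vector response of Shmt1 differed between chambers was not tested.

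Of 19 tested regulators of energy genes, 1 passed in ventricle –dox and +/–dox (7.6% and 6.6% of all genes), with a list median of 0.08 in –dox. It was Prkag2, a gamma subunit of AMP-activated kinase. Prkag2 stood at 29.8, 23.8 and 22.2 TPM in ventricle +dox and at 12.1, 12.6 and 13.0 TPM in –dox. It fell by 0.91 in –dox (adjusted p = 6.4e-07) and by 0.88 in +/–dox, and gave -0.33 (adjusted p = 0.055), -0.26 (adjusted p = 0.15) and -0.41 (adjusted p = 0.018, under the fold limit) with MBNL1, MBNL2 and MBNL1+MBNL2. In atria, where its level was 116 to 126 TPM in +dox and 73.5 to 86.9 TPM in –dox, the difference was -0.55 (adjusted p = 6.3e-04, under the fold limit). With MBNL2, Prkag2 was higher by 0.62 than in +/–dox in ventricle, and Esrrb, an orphan nuclear receptor of the ERR family, by 0.73 in atria. Its relative Esrra gave 0.31 in ventricle –dox (adjusted p = 0.029, under the fold limit) and the coactivator Ppargc1a 0.20 (adjusted p = 0.080).

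**Figure D5:**
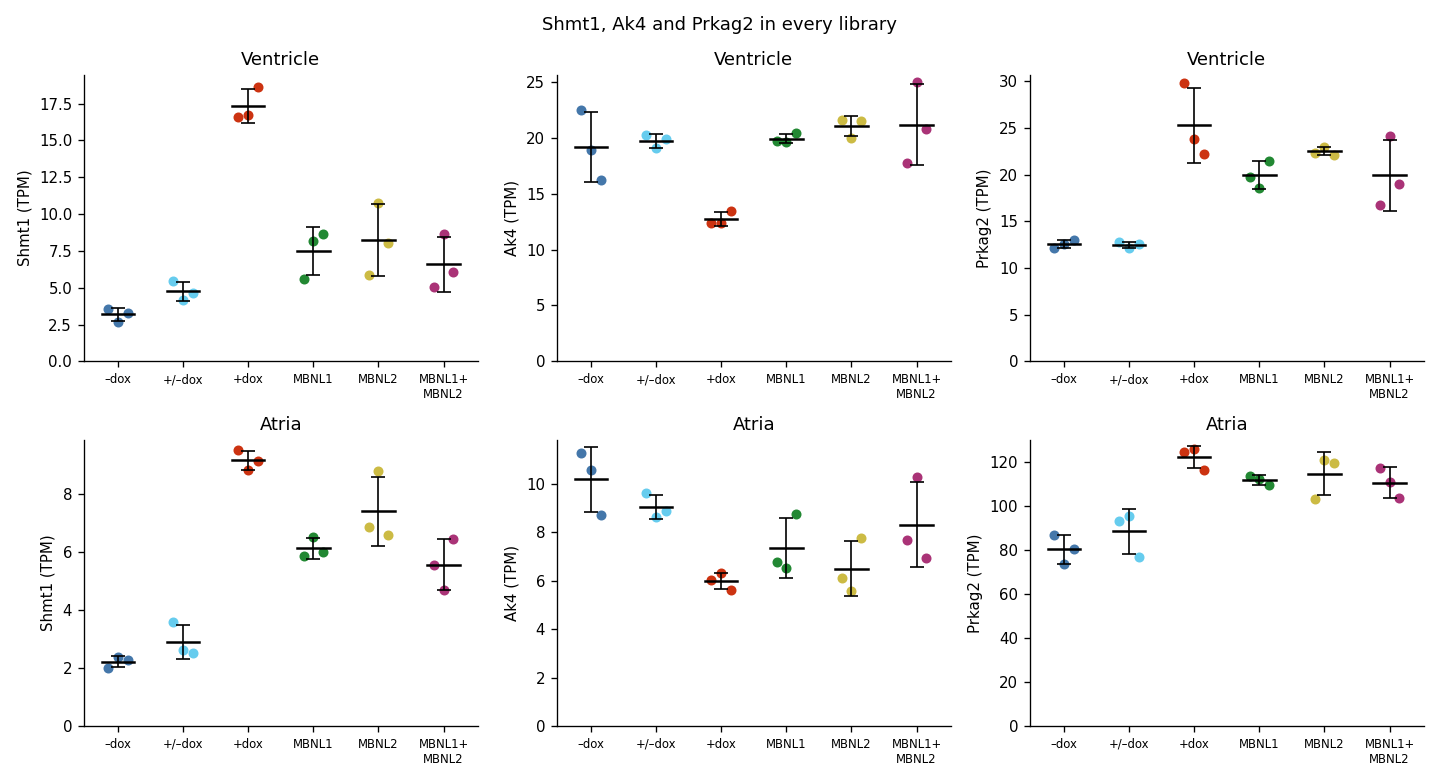
Level in TPM (y axis) of Shmt1, Ak4 and Prkag2 in each library of the 6 cohorts (x axis), ventricle above and atria below. Points are libraries and bars the mean ± SD of 3; by mean, Shmt1 and Prkag2 are highest and Ak4 is lowest in +dox in both chambers.

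Of 10 tested genes for ATP-using pumps, motors and the M-band, to which Ckm binds, 1 passed in ventricle –dox and +/–dox (7.6% and 6.6% of all genes), with a list median of 0.10 in –dox. It was the M-band gene Myom3, which fell by 0.97 (adjusted p = 0.0059) and by 1.01 (adjusted p = 0.0043). Its ventricle +dox values were 3.52, 2.32 and 1.69 TPM, and both calls were lost without +dox replicate 1, the highest (-0.64, adjusted p = 0.087 and -0.68, adjusted p = 0.064). They were also lost when only the groups compared were fitted (-0.97, adjusted p = 0.066 and -1.01, adjusted p = 0.062). Myom2 fell by 0.95 with MBNL1+MBNL2 against +dox in ventricle (adjusted p = 5.4e-04) and by 0.69 against +/–dox (adjusted p = 0.025, lost in 9 of the alternatives, among them those without any 1 of the +/–dox libraries or without MBNL1+MBNL2 replicate 2 or 3).

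In the chamber comparisons of –dox and +dox, 24.9% and 25% of all genes passed. Of 20 phosphotransfer partners 4 and 8 passed, and of the 8, 3 were lower in ventricle. Of 12 supply chain genes 3 and 1 passed, of 19 regulators 4 and 3, and of the 10 pump, motor and M-band genes 3 and 4. Between chambers, ventricle exceeded atria in both –dox and +dox for Ak4 (1.46 and 1.63) and for the mitochondrial permeability gene Ppif (1.24 and 1.27). The same held for Esrrb (1.08 and 1.13) and for the coactivator Ppargc1b (1.06 and 0.96). Shmt1 was also higher in ventricle (1.07 and 1.46), whereas Prkag2 was lower there (-2.16 and -1.81). On the log2(TPM + 0.1) scale Esrrb (0.41 and 0.52), Ppargc1b (0.51 and 0.36) and, in –dox, Shmt1 (0.50) no longer passed.

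The genes whose pattern was most like that of Ckmt2 were named by Pearson's r on log2 CPM over the 18 libraries of a chamber. In ventricle, among 10238 genes, these were Coq8a (0.978), Lta4h (0.973), Nudt6 (0.971), Cyfip1 (0.97) and Slc9a8 (0.967). The lowest values were those of Ccnd2 (-0.970), Ttc27 (-0.964) and Gins4 (-0.954). Coq8a, which is needed for coenzyme Q synthesis, stood at 33.0, 23.2 and 21.2 TPM in ventricle +dox and at 189, 169.6 and 181 TPM in –dox. In atria, among 10473 genes, the highest were Pdrg1 (0.957), Pdlim7 (0.937), Mybpc2 (0.928), Ubl4a (0.923) and Alkbh3 (0.922), and the lowest Zfp605 (-0.913), Adss (-0.908) and Samd5 (-0.902). Among members, Slc25a4 reached 0.82 in ventricle and 0.64 in atria, and Ckm 0.66 and 0.77. These values describe libraries that share cohorts and dox conditions, and were not adjusted for the group differences.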

How the data were processed

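RNA-seq of left ventricle and atria gave 36 libraries in 12 groups of 3. Per the submitters' processing notes, reads were aligned with STAR 2.7.10b to mm10 and quantified with RSEM 1.3.1. The deposited tables hold expected counts, not normalized, and TPM values, which the authors scaled to transcript length and to 1 common total per library. The kit keeps strand, but the strand setting of the counting is not given in the sources used here. All columns of per-sample values matched a labelled sample.

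Expected counts were rounded and tested with edgeR 4.0.16 (robust quasi-likelihood, TMM, filterByExpr, 12 group means, 19231 genes, R 4.3.3). Genes passed at a Benjamini-Hochberg adjusted p under 0.05 and a fold change of at least 1.5. Shares of TPM were compared by two-sided exact permutation tests (scipy 1.17.1). Libraries held 55031987 to 97091184 counts, and the common biological coefficient of variation was 17.4%. Replicates differed beyond sampling noise (chi-square per degree of freedom at least 9.61), so each counted as 1 sample.

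The members and the gene lists were chosen with earlier results of these data known. Named were all 9 members, list genes that passed (at most 4 per list and comparison), Slc25a5, Vdac1, Esrra and Ppargc1a in any case, and the 5 genes most and 3 least correlated with Ckmt2 among those with a mean of at least 5 CPM (log2 CPM, prior count 2). Of these list genes, those for the chamber comparisons are given where they passed in both dox conditions. Some genes that this rule names are not reported here. Gene positions are from GENCODE M21 and promoters from RefSeq. The statistics were tested on simulated data.

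Same-numbered ventricle and atria libraries of a cohort had weakly correlated deviations from their group means (r 0.123 to 0.243 in –dox and 0.152 to 0.257 in +dox). Over the 18 such pairs of all cohorts r ran from 0.041 to 0.257, not every pair above 0.1. The study states that both tissues came from the same mice, so the number was used as a block there as an alternative. Across cohorts r ran from -0.115 to 0.290 over 54 pairs, not every pair above 0.1, and the number was not taken as a pairing there. In all cohorts but MBNL1+MBNL2, same-numbered libraries also share the start of the library name. Other alternatives were RLE size factors, no low-count filter, a mean of at least 5 CPM, adjusted p alone, the library name start as a covariate, fits of fewer groups, DESeq2 1.42.0, limma 3.58.1 on log2(TPM + 1) and log2(TPM + 0.1), each replicate left out and, added after seeing the data, mitochondrially encoded genes left out and, between chambers, a block within cohort.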

Additional observations from a re-analysis of the deposited data

How the results depend on the processing

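Ckmt2 kept its call against +dox in all 10 comparisons under every alternative run, except atria MBNL2 with only the groups compared fitted, where the member count went from 1 to 0 and the adjusted p was 0.529; 17170 genes were tested there and DESeq2 called 9 genes, edgeR 1. Over all alternatives, 427 of 447 recomputed member calls held, 20 were lost, 26 were gained and 0 changed sign. With a mean of at least 5 CPM the count in ventricle –dox and +/–dox was 1 each, since Ckmt1 was not tested, and in atria MBNL2 against +/–dox it was 1. With limma on log2(TPM + 1) ventricle –dox and +/–dox gave 1 each, and on log2(TPM + 0.1) ventricle +/–dox gave 1 and atria MBNL1+MBNL2 against +/–dox 1. With the adjusted p alone the counts were 5 in ventricle +/–dox, 3 in atria –dox and 3 in atria +/–dox against +dox, and against +/–dox 1 for ventricle MBNL1, 1 for atria MBNL1 and 2 for atria MBNL2. DESeq2 gave 1 (Ckmt1) for the chamber difference in –dox. With 1 replicate left out, counts ran from 1 to 2 in ventricle –dox and +/–dox, from 0 to 1 in atria MBNL2 against +/–dox (1 without atria MBNL2 replicate 1, +/–dox replicate 1 or +/–dox replicate 3, where Ckmt2 gave -0.69, -0.59 and -0.63), from 6 to 8 between chambers in –dox and from 4 to 6 in +dox. Apart from the counts given here, the cause was not tested.

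The replicate block left the member counts as they were in all 22 comparisons (2 and 2 in ventricle –dox and +/–dox, 7 and 5 between chambers), also as a block within cohort between chambers. Among the calls of members and list genes it moved only that of Myh7 between chambers in –dox, to 0.57 with the block within cohort (0.62 without), and it changed no other call. Across all genes, 1461 passed in ventricle –dox, against 4021 with the adjusted p alone, 753 with a mean of at least 5 CPM and 714 with limma on log2(TPM + 1). For +/–dox these counts were 1270, 4187, 693 and 629. In atria 1005 passed in –dox (3060 with the adjusted p alone, 582 at 5 CPM) and 767 in +/–dox (2426 and 435). On log2(TPM + 0.1) the share of higher calls went from 44.9% to 10.2% between chambers in –dox, and from 47.2% to 11.4% in +dox. With 3 libraries a group, the exact test cannot pass 0.05, and Ckmt1 rests on few counts.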
